A study of Rattus norvegicus with 12 samples.

Results

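The Dlk1-Dio3 cluster is a dense group of miRNA genes within an imprinted domain, here followed in rat heart and in serum exosomes, the small vesicles that cells release into blood. Its members were chosen by name, as the rows of 40 miRNA numbers in any arm. The heart table held 60 of them among 574 miRNAs and the exosome table held 28 among 367, all of which were also in heart. Of the 40 numbers, 39 were listed in heart and 22 in the exosome table, and miR-665 was listed in neither. The 12 samples are small RNA libraries, 6 labelled as heart and 6 as serum, and SD is the rat strain given for all of them. The series describes a coronary artery ligation of 30 min followed by 1 week of reperfusion. Each deposited table sets groups headed CK and M against each other, and the labels say neither what these letters mean nor which group had the operation. Whether separate animals were used is not stated in the labels, so p-values measure the spread between samples, which may be technical.

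In mammals the miRNAs of this domain are expressed from the maternal chromosome together with the long noncoding RNA Meg3, while the protein-coding genes Dlk1, Rtl1 and Dio3 are expressed from the paternal one. The miRNAs near Rtl1 include several that are transcribed antisense to it, and miR-127 and miR-433 are among the best known of these. A second, longer run of hairpins extends from miR-379 to miR-410. The cluster is active in the embryo and placenta and, after birth, best known from the brain. In heart and muscle it has been linked to regeneration and to growth of muscle cells.

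The mature sequences that the results turn on are given 5′ to 3′ from RefSeq (GRCr8 build). Capitals mark the seed, bases 2 to 8, which pairs with target mRNAs. The list holds the most abundant heart member, the members at an unadjusted p below 0.05 in either table, miR-433-3p, and both arms of miR-434, whose balance differed between tables.
miR-493-5p: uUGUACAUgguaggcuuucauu
miR-433-3p: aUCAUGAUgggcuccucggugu
miR-127-3p: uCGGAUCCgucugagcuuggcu
miR-434-5p: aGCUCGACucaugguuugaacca
miR-434-3p: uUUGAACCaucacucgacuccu
miR-379-5p: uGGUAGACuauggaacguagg
miR-411-5p: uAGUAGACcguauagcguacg
miR-323-3p: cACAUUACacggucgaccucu
miR-487b-3p: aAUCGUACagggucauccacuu
miR-541-5p: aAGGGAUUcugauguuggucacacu
miR-409a-3p: aAUGUUGCucggugaacccc
The neighbours miR-379-5p and miR-411-5p differed within their seeds by G2A, counted from base 1 at the 5′ end of miR-379-5p. Of 60 members, 58 had a RefSeq mature sequence, and these carried 56 different seeds. A seed was shared by miR-381-3p and miR-539-3p, and another by miR-299a-3p and miR-299b-3p.

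Some members are too alike for their counts to be taken as separate. The 17 bases of miR-299b-3p are the start of miR-299a-3p, and miR-300-3p differs from miR-381-3p over 18 bases by G4A, counted from the 5′ end of miR-300-3p.
miR-299b-3p: uAUGUGGGacgguaaac
miR-299a-3p: uAUGUGGGacgguaaaccgcu
miR-381-3p: uAUACAAGggcaagcucu
miR-300-3p: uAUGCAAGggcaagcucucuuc
In heart, miR-300-3p had 20, 46 and 30 reads in the CK libraries and 21, 43 and 38 in the M libraries. miR-381-3p had 1, 4 and 0 in CK and 0, 1 and 1 in M. How reads that match several miRNAs, or match with a mismatch, were assigned is not given in the sources used here, so the levels of both pairs are uncertain.

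The RefSeq promoter of Meg3, from 250 bases before to 50 bases after its annotated start at the head of the domain, lies at chr6:134273806-134274105 on the plus strand of GRCr8. It is shown because many members were high in the same libraries, and its part in their levels was not tested. Capitals mark matches on either strand to the letters TGACGTCA, known as the cAMP response element, and TATAAA, the core promoter box of many genes. The latter matched on both strands, 38 and 34 bases before the start, and these matches overlap each other.
Meg3: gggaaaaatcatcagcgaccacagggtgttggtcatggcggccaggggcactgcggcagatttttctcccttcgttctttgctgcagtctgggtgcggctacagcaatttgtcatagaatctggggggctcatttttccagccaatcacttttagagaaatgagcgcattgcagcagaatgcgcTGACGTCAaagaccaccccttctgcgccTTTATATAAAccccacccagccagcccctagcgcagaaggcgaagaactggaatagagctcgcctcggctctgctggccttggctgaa
TGACGTCA began 66 bases before the start and was present in 1.83% of 33469 rat promoters of the same length. TATAAA was present in 14.2% of them. A match describes the letters only.

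In heart, the cluster had higher means in M than in CK in most members, and the most abundant member, miR-127-3p, was among them. By the means of the authors' deposited table, 48 of 60 members were higher in M and 12 lower, while 51.4% of all 574 miRNAs were higher and 48.6% lower. The members' median log2 fold by the authors' deposited table was 0.71. Members at a mean of 0 enter this and the following medians at a bound, against a floor of 3 reads over the group. No member passed the adjusted threshold of 0.05 in the authors' deposited table, in which 0.697% of all miRNAs did. The authors' deposited table held 4 members higher in M with an unadjusted p below 0.05, beside 4.18% of all miRNAs, and 1 lower, beside 3.48%. These were miR-379-5p, miR-411-5p, miR-541-5p and miR-493-5p, and miR-323-3p. Fewer cells of a type and less RNA per cell cannot be told apart in such bulk samples.

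Values of single libraries were reconstructed as whole reads from the deposited means, for all members in both tables, and are given as reads divided by the size factor (normalized counts). They show 3 libraries for each group in each table, numbered by increasing depth within a group. A library cannot be matched to a labelled sample. By estimate, heart libraries held 2253000 to 6610000 miRNA reads and exosome libraries 1696000 to 5328000. In heart, CK library 2 and M library 2 stood apart for this cluster. Among 29 members with a larger group mean of at least 10, CK library 2 was the highest of the CK libraries in 25 and M library 2 the highest of the M libraries in 25. Of 256 other solved miRNAs at such means, 28.1% were highest in CK library 2 and 39.8% in M library 2 by the same count.

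The summed level of the 60 heart members was 1912, 4414 and 2125 in CK libraries 1, 2 and 3, and 3450, 8202 and 3616 in M libraries 1, 2 and 3. CK library 2 therefore lay above the lower 2 M libraries, and the groups overlapped. Without miR-127-3p the sums were 741, 1633 and 815 in CK and 1531, 3085 and 1588 in M. miR-127-3p made up 61.2%, 63.0% and 61.7% of the summed level in the CK libraries and 55.6%, 62.4% and 56.1% in the M libraries. These sums rest mostly on miR-127-3p and do not describe each member. miR-329-3p, for example, was lowest of all in M library 2, at 5.87. From the means of the authors' deposited table, the members made up 0.0661% of all heart miRNAs in CK and 0.106% in M.

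**Figure D1:**
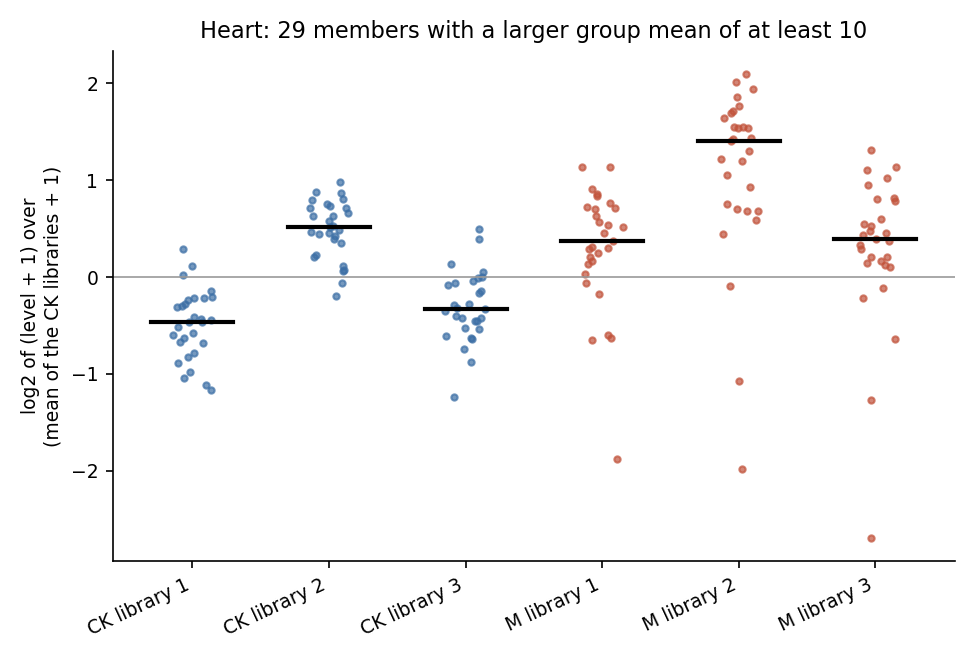
Each point is 1 of 29 heart members with a larger group mean of at least 10, plotted as the log2 of its level plus 1 over the mean of the CK libraries plus 1, by library, and the black bars are medians. Medians are -0.47, 0.51 and -0.33 in CK libraries 1, 2 and 3 and 0.38, 1.40 and 0.39 in M libraries 1, 2 and 3, so that CK library 2 sits above 2 M libraries.

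Markers of other cell types moved with these libraries in part. miR-214-3p, a miRNA of fibroblasts and other mesenchymal cells, had levels of 1068, 1559 and 796 in CK libraries 1, 2 and 3 and 2492, 9067 and 1425 in M libraries 1, 2 and 3. It was highest in the same library of each group as the cluster. Of 6 mesenchymal markers 5 were higher in M, and the authors' deposited table gave summed means of 608300 for CK and 1034910 for M. Of these, miR-214-3p alone could be solved into libraries. miR-208a-3p, encoded in a heart myosin gene, had 1236, 838 and 1597 in CK and 785, 193.8 and 948 in M. It was lowest in the same library of each group. The other solved heart muscle marker, miR-208b-3p, had 437.9, 261.9 and 227.6 in CK and 244.1, 219.3 and 377.6 in M. Its lowest levels were thus in CK library 3 and M library 2. The authors' deposited table had 4 of 5 heart muscle markers lower in M. Only miR-1-3p was higher, with means of 205731 for CK and 251909 for M, and it was the most abundant of the 5. In the authors' deposited table the heart muscle list summed to 315864 for CK and 312958 for M, so the labelled tissue carried its defining markers. Of 6 neural markers 4 were higher in M and 2 lower, by the same means. Among these, miR-129-5p had 51.5, 139.6 and 88.3 in CK and 157.1, 321.1 and 125.3 in M. It was also highest in the same library of each group as the cluster. miR-9a-5p was highest in CK library 2 but in M library 1. The neural marker miR-124-3p was at 0 in 4 of the 6 heart libraries and at 19.1 in M library 1. The solved neural markers, mostly miR-9a-5p, summed to 416, 998 and 852 in CK and 1435, 662 and 556 in M. The solved leukocyte markers, 4 of 5, summed to 1142, 788 and 1005 in CK and 1754, 2377 and 1505 in M. Each M library lay above each CK library, and M library 2 was highest. Of the leukocyte list, 4 of 5 were higher in M in the authors' deposited table, with p = 0.00605 for miR-155-5p and p = 0.0239 for miR-142-5p. The exception was the abundant miR-150-5p, for which the authors' deposited table gave 10399 in CK and 5467 in M (p = 0.0258). Red cell markers were lower in 2 of 3 and liver markers higher in 2 of 3, by the same means. The part of these cell types in the cluster's levels was not tested.

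In the Rtl1 group, the miRNAs at the Meg3 end of the run, 13 of 15 heart members were higher in M. Their median log2 fold, by the authors' deposited table, was 0.78. Over all 574 heart miRNAs the median was 0.00. miR-127-3p, a placental regulator of Rtl1 in mice, had levels of 1171, 2781 and 1310 in CK and 1919, 5118 and 2028 in M. CK library 2 exceeded both lower M libraries. The authors' deposited table gave means of 1754 and 3022, a log2 fold of 0.78 (p = 0.256), and limma gave 0.74 ± 0.44 (SE, adjusted p = 0.314).

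Both arms of miR-434, a hairpin antisense to Rtl1, were listed. miR-434-5p had 25.2, 91.9 and 49.6 in CK and 123.1, 163 and 64.4 in M, and the groups overlapped. miR-434-3p had 43.1, 82.5 and 47.1 in CK and 50.9, 94.0 and 61.8 in M, with overlap as well. The limma difference was 1.15 ± 0.50 on the log2 scale for the 5p arm (SE, adjusted p = 0.207) and 0.27 ± 0.37 for the 3p arm (SE, adjusted p = 0.699). The difference between the arms was not tested.

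miR-433-3p, studied in rodent cardiac fibrosis, went the other way from its neighbours. It had 27.3, 36.2 and 36.8 in CK and 21.2, 31.3 and 13.2 in M. The M value of library 2 exceeded the lowest CK value, and limma gave -0.65 ± 0.41 (SE, adjusted p = 0.330). miR-431, a miRNA linked to muscle regeneration in mice, had 4.20, 14.5 and 5.16 in CK and 10.6, 17.6 and 11.5 in M. The remaining hairpins of this group at a mean of at least 10 in either group were miR-337-5p, miR-136-3p, miR-370-3p and miR-127-5p, for which the authors' deposited table gave log2 folds of 0.90, 1.08, 0.96 and 1.13. None of these 4 was at an unadjusted p below 0.05. miR-493-5p, the outermost member, had 1, 4 and 2 reads in CK and 5, 4 and 14 in M. Its levels were 1.05, 2.89 and 1.29 in CK and 10.6, 3.92 and 12.4 in M, without overlap, at counts that leave little precision. The authors' deposited table gave it p = 0.0469 and an adjusted p = 0.629.

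In the group from miR-379 to miR-410, 35 of 45 heart members were higher in M. By the authors' deposited table their median log2 fold was 0.59. miR-379-5p, the leading member of this run, had 120, 271 and 96.7 in CK and 295, 662 and 350 in M. Each M library lay above each CK library. The authors' deposited table gave means of 163 and 436 (p = 0.0222, adjusted p = 0.574), and limma gave 1.47 ± 0.43 (SE, adjusted p = 0.0984).

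miR-411-5p, from the next hairpin, had 94.5, 137 and 81.9 in CK and 178, 381.8 and 183 in M. The groups did not overlap, and limma gave 1.18 ± 0.36 (SE, adjusted p = 0.108). miR-541-5p, near the other end of the run, had 84.0, 187 and 90.9 in CK and 197, 520 and 246 in M. These groups did not overlap either, with 1.37 ± 0.43 in limma (SE, adjusted p = 0.111). All 3 are 5p arms, and all 3 were below 0.05 only before adjustment, at p = 0.0222, 0.0292 and 0.0447 in the authors' deposited table.

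miR-323-3p was the clearest exception. It had 16.8, 60.1 and 25.1 in CK and 8.49, 7.83 and 4.41 in M, from 16, 83 and 39 reads in CK and 4, 8 and 5 in M. Each M library lay below each CK library, and in M library 2, where most members were highest, miR-323-3p was not. Its mean was 4.92-fold lower in M in the authors' deposited table (p = 0.0274, adjusted p = 0.574), and limma gave -1.99 ± 0.55 (SE, adjusted p = 0.0984). Without CK library 2 the limma difference was -1.49. Its neighbours along the chromosome went both ways. By the authors' deposited table the log2 folds were 2.37 for miR-380-5p and -0.89 for miR-380-3p on the side of miR-379, and -0.37 for miR-758-3p, -0.23 for miR-329-3p and 1.18 for miR-329-5p on the side of miR-410. For miR-758-3p this rested on 15 reads in CK and 6 in M. miR-380-5p had 3 reads in CK, all in library 2, and 11 in M. The other counts were 5 and 2 for miR-380-3p and 11 and 13 for miR-329-5p. None of these 5 was at an unadjusted p below 0.05.

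**Figure D2:**
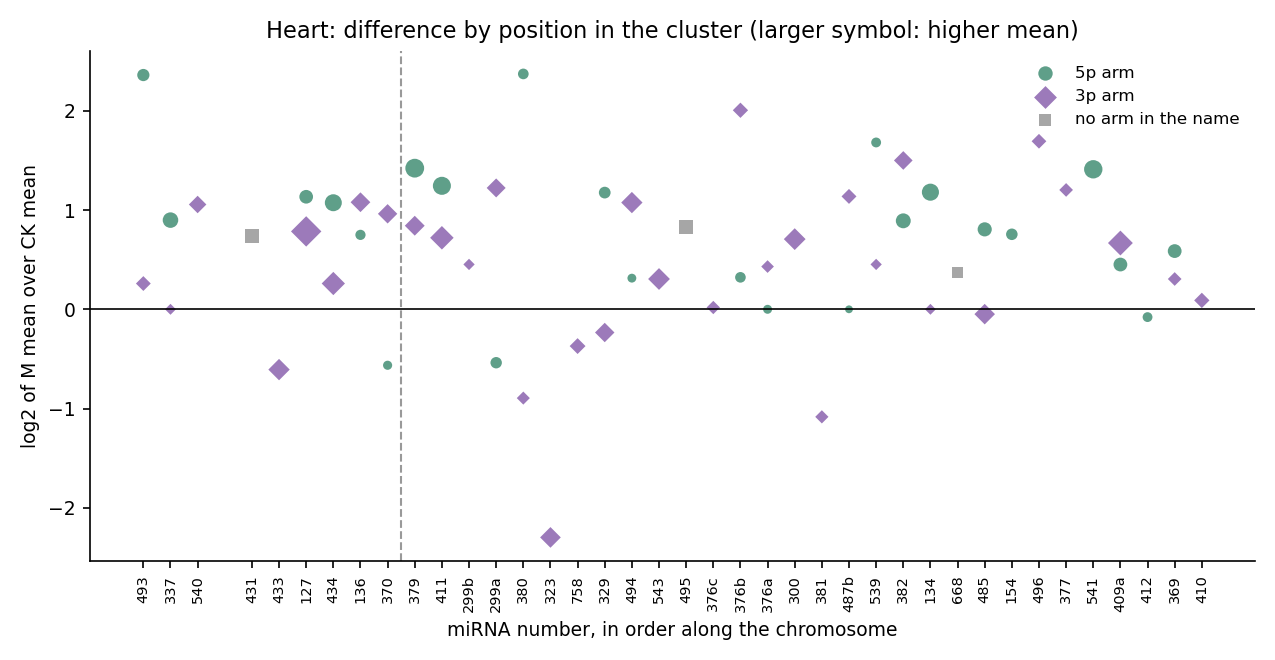
The log2 of the M mean over the CK mean in heart for 60 members, by miRNA number in order along the chromosome, with symbols by arm and symbol size by mean level. The dashed line separates the Rtl1 group on the left from the run of miR-379 to miR-410, members at 0 in a group are drawn at their bound, and miR-323-3p lies at -2.30, with members at its sides between -0.89 (miR-380-3p) and 2.37 (miR-380-5p). Both arms of miR-380 rest on few reads.

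Further members of the run are described here for roles known from other work, and none passed the adjusted threshold. miR-494-3p, protective against ischemia in transgenic mouse hearts, had 14.7, 25.3 and 11.6 in CK and 25.5, 57.8 and 25.6 in M. The lowest M library lay just above the highest CK library. miR-495, which promotes division of newborn rat heart muscle cells, had 8.40, 12.3 and 10.96 in CK and 14.9, 27.4 and 14.1 in M, again without overlap. Their limma differences were 0.996 ± 0.47 (SE, adjusted p = 0.235) and 0.73 ± 0.45 (SE, adjusted p = 0.328). miR-134-5p, a regulator of dendritic spines in rat neurons, had 41.0, 89.0 and 41.3 in CK and 67.9, 221 and 98.8 in M, with overlap. miR-410-3p, also linked to heart muscle cell division in rats, was scarce, with 3, 2 and 4 reads in CK and 0, 6 and 2 in M.

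In all, the 3 M libraries lay wholly above the 3 CK libraries for 12 of 60 members and wholly below for 1, beside 10.6% and 9.98% of all 501 solved heart miRNAs. Among miRNAs with a larger group mean of at least 10, these counts were 10 and 1 of 29 members, beside 16.8% and 13% of 285 miRNAs. The members above were miR-379-5p, miR-541-5p, miR-411-5p, miR-300-3p, miR-494-3p, miR-485-5p, miR-495, miR-369-5p, miR-299a-3p and miR-382-3p, with miR-493-5p and miR-496-3p at lower means. By abundance, the 5 members with a mean of 100 or more were all higher in M. By the authors' deposited table their median log2 fold was 1.24. That median was 0.81 over 23 members at 10 to 100 and 0.35 over 32 scarcer members in the authors' deposited table. Over miRNAs outside the cluster it was -0.01, -0.08 and 0.00 in the same 3 ranges.

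**Figure D3:**
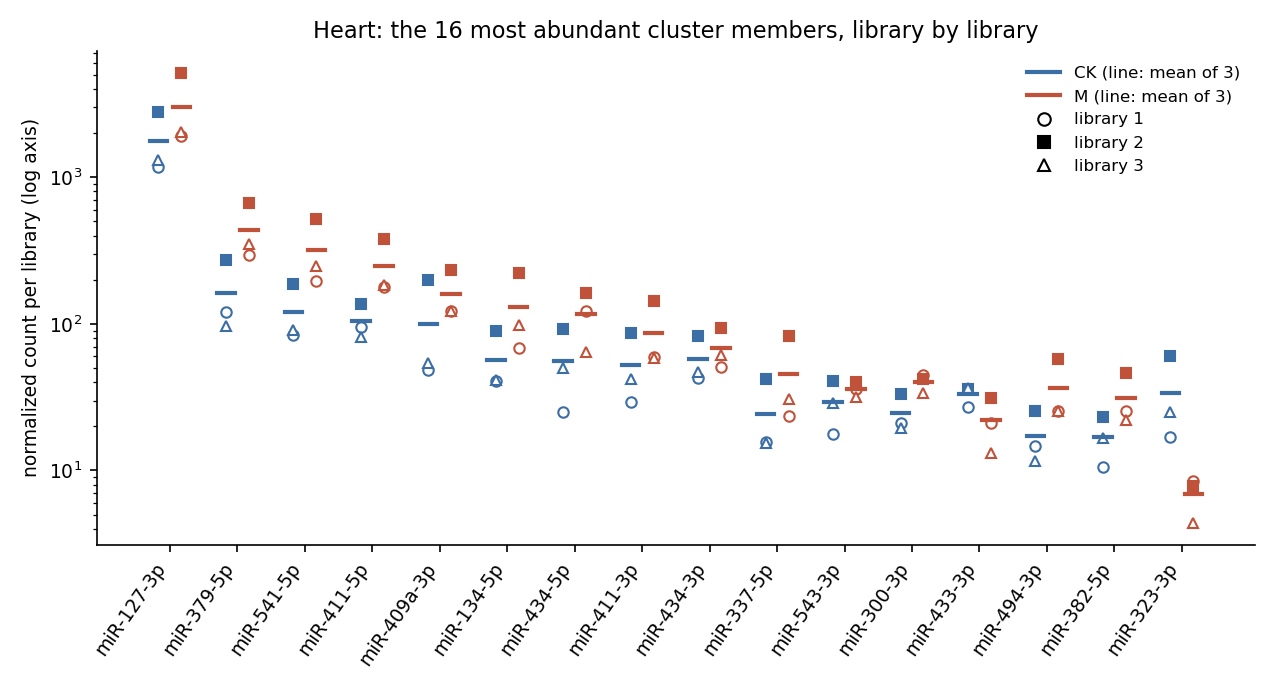
Normalized counts of the 16 most abundant heart members in each library, on a log axis, with CK in blue, M in red, bars at group means and filled squares for library 2. miR-127-3p runs from 1171 to 5118, and miR-433-3p and miR-323-3p are the members whose M mean is below their CK mean.

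Levels relative to miR-127-3p in the same library do not depend on the size factors. On that scale miR-379-5p was at 10.2%, 9.76% and 7.38% in CK and at 15.4%, 12.9% and 17.3% in M. miR-541-5p was at 7.17%, 6.74% and 6.94% in CK and at 10.3%, 10.2% and 12.1% in M. The groups did not overlap for either, nor for miR-134-5p. miR-411-5p, with 8.07%, 4.94% and 6.25% in CK and 9.29%, 7.46% and 9.05% in M, overlapped on this scale. miR-323-3p (1.43%, 2.16% and 1.92% in CK, 0.442%, 0.153% and 0.217% in M), miR-433-3p and miR-485-3p were lower in M without overlap. Of 28 members 3 lay wholly above and 3 wholly below, beside 2.11% and 11.3% of 284 solved miRNAs. The share wholly below was thus near that of all miRNAs, and no test of the ratios was made.

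Without CK library 2 and M library 2, 44 of 60 members had the higher mean in M (median log2 fold 0.68). The groups did not overlap for miR-379-5p, miR-411-5p, miR-541-5p and miR-323-3p, so leaving out libraries could not turn their direction. In limma on the 4 other libraries 7 of 29 members passed an adjusted p below 0.05, all higher in M, beside 14.7% of 285 miRNAs. They were miR-379-5p, miR-541-5p, miR-409a-3p, miR-434-5p, miR-127-3p, miR-411-5p and miR-134-5p. miR-379-5p had a log2 difference of 1.57 ± 0.30 there (SE, adjusted p = 9.05e-06 in limma) and miR-127-3p of 0.67 ± 0.20 (SE, adjusted p = 0.0126 in limma). These libraries were left out after their values were seen, which by itself narrows the spread. With so few libraries, limma also takes most of the spread from the other miRNAs. These p-values are therefore a description. With all 6 libraries, limma passed no member, beside 0.702% of 285 miRNAs. Without M library 2 alone, miR-379-5p (log2 1.13, adjusted p = 0.0425) and miR-323-3p (log2 -2.09, adjusted p = 0.0185) passed in limma, beside 5.26%. Neither passed without any other single library, at adjusted p of 0.100 to 0.365 for miR-379-5p and 0.111 to 0.269 for miR-323-3p in limma.

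By arm, 19 of 24 heart 5p members and 26 of 33 3p members were higher in M. The authors' deposited table gave median log2 folds of 0.85 and 0.45 for them. Both arms were listed for 21 hairpins, and 14 of these had both arms in the same direction. The 5p arm had the larger mean in 10 hairpins and the 3p arm in 11. The preference was strong in some. miR-127 gave 72 reads of its 5p arm and 15421 of its 3p arm over the 6 libraries, miR-134 gave 596 and 1, and miR-379 gave 1851 and 93. It was weak in others, as in miR-434, with 526 and 418, and miR-485, with 96 and 131.

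For 6 hairpins both arms had a mean of at least 10 in heart: miR-127, miR-379, miR-409a, miR-411, miR-434 and miR-485. The 5p share of reads in CK and M was 65.6% and 74.0% for miR-411, 36.1% and 49.5% for miR-485, 93.7% and 96.0% for miR-379, 9.01% and 9.01% for miR-409a and 0.413% and 0.507% for miR-127. miR-434 had 228 reads of each arm in CK, and a 5p share of 61.1% in M. By library, the log2 ratio of 5p to 3p reads of miR-485 was -0.74, -0.66 and -1.18 in CK and 0.58, -0.52 and 0.51 in M, without overlap. For miR-434 it was -0.77, 0.16 and 0.08 in CK and 1.27, 0.80 and 0.06 in M, with overlap. These ratios have no test, and those of miR-485 rest on 6 to 38 reads per arm and library.

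**Figure D4:**
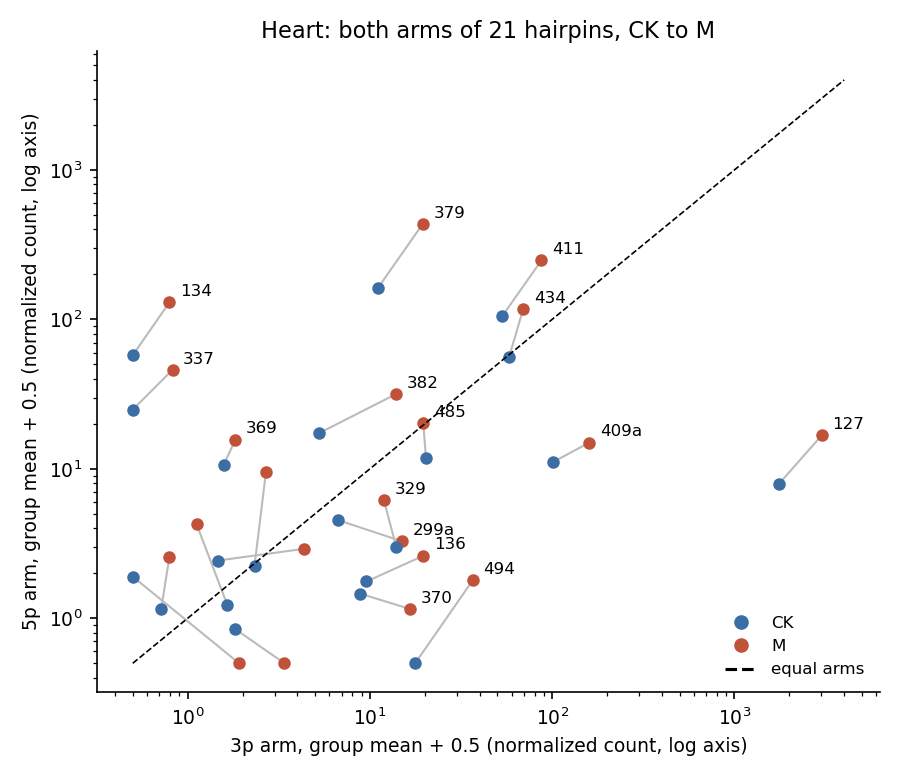
Heart group means of the 5p arm against the 3p arm plus 0.5 for 21 hairpins with both arms listed, on log axes, with a grey line from CK in blue to M in red and a dashed line of equal arms. miR-379 and miR-134 lie far above the line, miR-127 and miR-409a far below it, and miR-434 and miR-485 next to it.

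Other miRNA genes lie between the outermost members in RefSeq and are outside the 40 numbers. Of these, 7 mature miRNAs were listed in heart, 3 higher and 4 lower in M, with a smallest p of 0.304 in the authors' deposited table. The most abundant was miR-341, a rodent miRNA, with 4, 14 and 8 reads in CK and 1, 29 and 12 in M. Only 2 were listed in the exosome table, miR-6331 and miR-666-3p. In CK they had nearly the same reads, 96, 0 and 207 for miR-6331 and 95, 0 and 198 for miR-666-3p, and both had 0 in all M libraries. Whether the same reads were counted under both names was not tested. The p-values of these 2 miRNAs were 0.0528 and 0.0569 in the authors' deposited table.

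In serum exosomes most members had lower means in M, many of them from reads in few libraries. Of 28 members 26 had the lower mean in M in the authors' deposited table, where 59.1% of all 367 miRNAs did. There, 13 of the 28 members were at 0 in M, beside 59 of all 367 miRNAs. For 11 of the 28 members all reads came from 1 library, which alone set their direction. 1 member, miR-487b-3p, fell at an adjusted p below 0.05, beside 1.36% of all miRNAs lower in M at that threshold, in the authors' deposited table. miR-409a-3p was lower at an unadjusted p below 0.05 in addition, which makes 2 members beside 8.17% of all miRNAs in the authors' deposited table. No member was higher in M at an unadjusted p below 0.05, beside 5.72% of all miRNAs. limma on the reconstructed levels passed 0 of 26 members and 0% of 285 miRNAs, and held 2 members lower at an unadjusted p below 0.05, beside 6.67% of those miRNAs, with a median SE of 2.42 on the log2 scale over members.

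miR-487b-3p, which has been linked to growth of blood vessels in mouse hindlimbs, had levels of 162.0, 142.9 and 190.0 in CK, close together, and 0 in each M library. The authors' deposited table gave means of 165 and 0 (adjusted p = 0.0265). Against the floor of 3 reads over the M group this is 126.6-fold lower. The floor covers counting error only. As just 39.9% of exosome member values had reads, this fold is not a lower limit. In limma it did not pass, with -7.36 ± 2.44 on levels plus 1 (SE, adjusted p = 0.234). In heart the same miRNA was scarce, with 0, 1 and 5 reads in CK and 1, 4 and 3 in M.

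miR-409a-3p had 18, 187 and 126 reads in CK and 0 in each M library. Its CK levels were 23.5, 140 and 52.4, and the difference was 55.2-fold against the same floor, with the same limit (authors' deposited table, p = 0.0491 and adjusted p = 0.353). miR-433-3p had 60, 115 and 384 reads in CK and 0, 39 and 0 in M. It was the third member whose M libraries all lay below all CK libraries, beside 7.49% of 307 solved exosome miRNAs, and its p was 0.254 in the authors' deposited table. No member lay wholly above, beside 4.56%.

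The most abundant exosome members were not separated between groups. miR-382-5p had 283, 72 and 1454 reads in CK and 0, 96 and 166 in M, and the authors' deposited table gave means of 343 and 108 (p = 0.163). miR-434-3p had 61, 322 and 839 reads in CK and 0, 212 and 52 in M. miR-494-3p had levels of 201, 8.98 and 384 in CK and 0, 137 and 0 in M. The M libraries reached into the CK range in each. miR-379-5p had 57, 325 and 215 reads in CK and 247, 0 and 0 in M, and its highest level of all, 322, was that of M library 1. It was the lone library of M with this miRNA.

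**Figure D5:**
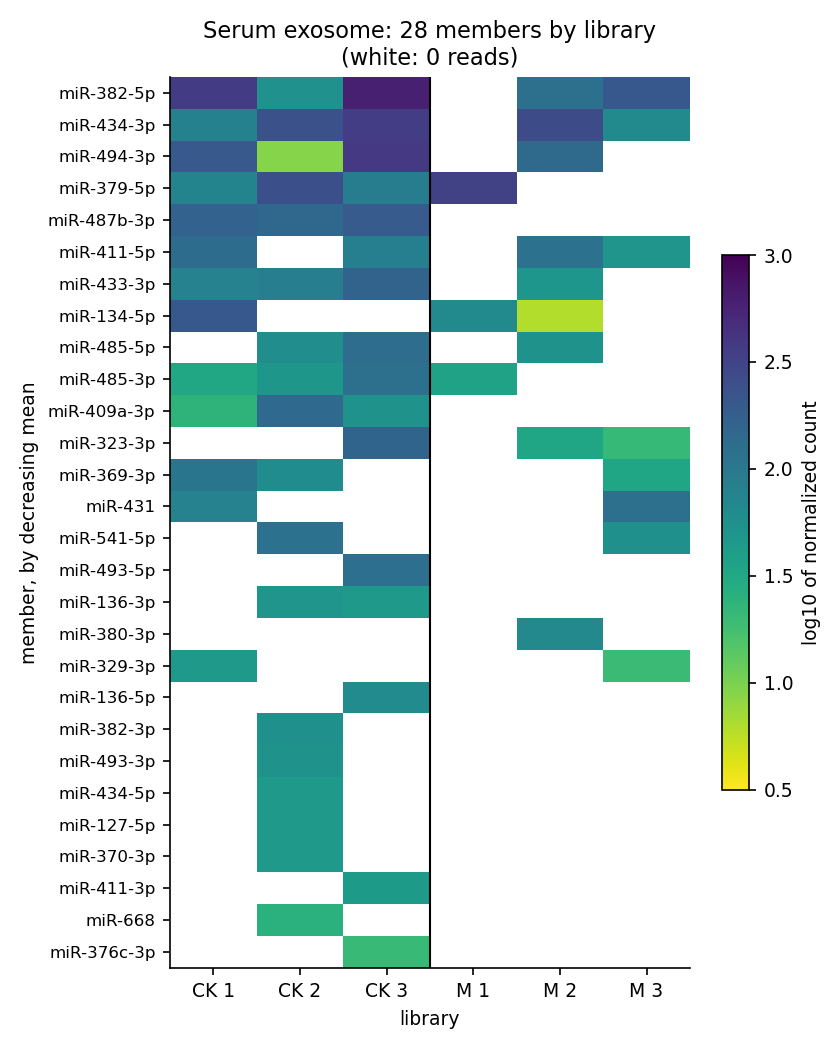
Log10 of the normalized count of 28 exosome members, by library, with white for 0 reads and members in order of decreasing mean. M library 1 holds 3 members, M library 2 holds 9 and M library 3 holds 8, while CK libraries hold 13, 18 and 16, and miR-487b-3p fills all CK libraries and no M library.

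Most exosome members were found in a few libraries each. The CK libraries had reads of 13, 18 and 16 of the 28 members and the M libraries of 3, 9 and 8. Among 178 other solved miRNAs with means in the range of the members' means, 98, 109 and 111 had reads in CK and 65, 92 and 110 in M. M library 1 was therefore low for both, while M library 3 was low for the cluster and not for the others. M libraries had estimated depths of 1855000, 1953000 and 1961000 reads and CK libraries of 1696000, 2961000 and 5328000, and the part of depth in these counts was not tested. Members with reads had a median of 81 reads and a minimum of 5, none had reads in all 6 libraries, and 11 had reads in 1 library alone. In heart 77 of 286 values above 0 were 1 to 3 reads, and in the exosome table none of 67.

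At means of 10 to 100, the median log2 fold by the authors' deposited table was -2.08 over 16 exosome members and -1.15 over 95 other miRNAs. Above 100 the medians were -1.35 over 4 members and -0.01 over the others. Under 10, all 8 members were at 0 in M, so their median of -3.50 is set by the floor, beside 0.00 over 50 other miRNAs. The Rtl1 group had 9 of 10 members lower and the run of miR-379 to miR-410 had 17 of 18. The members higher in M were miR-431, with reads of 59 in CK library 1 and 96 in M library 3, and miR-380-3p, with 54 reads in M library 2 alone. The members summed to 1583, 1512 and 2606 in CK and 422, 843 and 566 in M, without overlap of the groups. From the means of the authors' deposited table they made up 0.0858% of all exosome miRNAs in CK and 0.0252% in M. Of 6 mesenchymal markers 5 were also lower in exosome M in the authors' deposited table, with miR-199a-3p (adjusted p = 0.000243) and miR-143-3p (adjusted p = 0.0291) past the threshold there. miR-21-5p went the other way, with 41079 in CK and 58027 in M, and the list summed to 175624 and 122810 by the authors' deposited table. Liver markers were lower in 2 of 3, with sums of 32337 and 17967 by the authors' deposited table. Of leukocyte markers 3 of 5 were higher in M, and of red cell markers 2 of 3. Of 4 neural markers listed 2 were higher and 2 lower, and of 3 heart muscle markers listed 2 were higher and 1 lower. Among the neural markers, miR-9a-5p had means of 76.5 in CK and 0 in M, and miR-128-3p had 85358 and 126161. The part of these cells in the cluster's difference was not tested.

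The tables were normalized separately, so heart and exosome values are set side by side without a test. Of the 28 members in both, 22 were higher in heart M and lower in exosome M, 4 were lower in both, 1 was higher in both, and miR-380-3p was lower in heart and higher in exosomes, all by the means of the authors' deposited table. Over each whole table, 51.4% of heart miRNAs were higher in M and 59.1% of exosome miRNAs lower. The share of all miRNAs that did both is not given here. Some of the 22 rest on few heart reads, as miR-376c-3p with 4 in CK and 2 in M and miR-369-3p with 5 and 3. miR-323-3p and miR-433-3p, the exceptions in heart, were among the 4 lower in both. The opposite directions were not particular to this cluster. The miR-199a and miR-214 list had 3 of 3 higher in heart M (median log2 fold 1.92) and 3 of 3 lower in exosome M (-1.90). For miR-483 and miR-335, miRNAs of other imprinted host genes, 1 of 3 was higher in heart M (-1.37) and 3 of 3 were lower in exosome M (-1.55). These medians are by the authors' deposited table. Within each table the order of the cluster's members differed. miR-127-3p led in heart and was not listed in the exosome table, where miR-127-5p had 59 reads in CK library 2 alone. miR-382-5p led in exosomes and was 15th in heart.

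The balance of arms also differed for miR-434. In heart its 5p arm took 55.7% of 944 reads of the hairpin, and in exosomes 3.94% of 1547. The exosome reads of the 5p arm came from CK library 2 alone, with 61. miR-485 was near balance in both tables, with 42.3% in heart and 51.1% in exosomes. miR-382 favoured its 5p arm in both, with 72.4% and 96.6%.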

How the data were processed

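Small RNA libraries were built with a NEBNext kit from Trizol RNA, per the labels' protocols, and the submitters' processing notes name Bowtie2 2.2.6, DESeq 1.30.0 and mRatBN7.2. The trimming, the miRNA release and the handling of multiply matching reads are each not given in the sources used here. In each table the authors deposited a mean normalized count (a signal, reads divided by size factors) over all libraries and per group, a log2 fold, a p-value and an adjusted p-value, which were taken as the main test. From the 15 printed digits of each mean, whole reads of 3 libraries per group were solved (relative tolerance 6e-15), for 87.3% and 89.2% of the heart CK and M means and 84.2% and 86.1% of the exosome means. On simulated means, all of 480, 478, 289 and 252 searched values came out correct. As an alternative, limma 3.58.1 in R 4.3.3 with a mean-dependent prior was fitted to log2(level + 1) of the 285 solved miRNAs of each table whose larger group mean was 10 or more, adjusted by Benjamini-Hochberg. With a simulated log2 shift of 2 it called 67 of 69 shifted heart and 60 of 62 shifted exosome miRNAs, and 3 and 4 that were not shifted. The simulated reads had 1 fixed spread and did not copy the many values of 0 in the exosome table, where 39.9% of member values had reads. They therefore do not show how well limma finds differences in the real exosome libraries, where the members' median SE was 2.42. Floors cover counting error only. The members, lists and tests were chosen with earlier results of these data known. Named members are those at an unadjusted p below 0.05, the 10 most abundant of each table and hairpins with both arms at a mean of at least 10, and others that were named for a known role, for an exception or for non-overlap were chosen after their values were seen. RefSeq tables of GRCr8 gave sequences and gene order, and 58 of 60 members matched.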

Additional observations from a re-analysis of the deposited data

How the results depend on the processing

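The heart count of members higher in M was 25 of 29 with a larger group mean of at least 10, and without each library in turn it was 44 to 49 of 60, with a median log2 fold of 0.49 to 0.86. In the exosome table, 18 to 26 of 28 members were lower without each library, with a median of -3.48 to -1.66. Without CK library 2 it was 18, since 6 members then had no reads in either group, and miR-379-5p and miR-541-5p had the higher mean in M. Scaling to group totals shifts every log2 fold by -0.17 in heart and -0.13 in the exosome table and turned 2 heart members. Over all heart miRNAs, limma called 2 at each pseudocount (0.5, 1 and 5), 1 to 15 without each library and 42 without CK library 2 and M library 2, beside 4 in the authors' deposited table. For exosomes limma called 0 in every setting, beside 14, and at an unadjusted p below 0.05 it held 36. miR-487b-3p had adjusted p of 0.142 to 0.602 over the limma settings. Against totals without the 5 most abundant miRNAs, the members' share was 0.112% and 0.180% in heart CK and M, and 0.160% and 0.0462% in exosomes. Among hairpins with both arms at a mean of at least 10, the 5p arm was higher in 3 in heart and 1 in exosomes, beside 10 and 4. No paired analysis was possible because the groups CK and M are not mapped to the numbered samples. In heart, miR-379-5p, miR-411-5p, miR-541-5p and miR-323-3p kept their direction in every setting run, as did both exosome members at an unadjusted p below 0.05. So did miR-493-5p in the 1 run for it, limma without a filter on low means. For all of these the libraries of the groups did not overlap, so no such setting could turn their direction.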

Other observations

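Some members were scarce in heart and had more reads in exosome CK libraries. miR-487b-3p had 6 reads over the heart CK libraries, 8 over the heart M libraries and 772 over the exosome CK libraries. miR-136-5p had 8 reads over the heart libraries, of which 3 were in M library 1, and 150 reads in exosome CK library 3 alone. miR-369-3p, the minor arm of its hairpin in heart with 8 reads beside 78 of miR-369-5p, had 81 and 81 reads in exosome CK libraries 1 and 2 and 27 in M library 3, while miR-369-5p was not listed in the exosome table.

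Several exosome members shared 1 library. miR-382-3p, miR-493-3p, miR-434-5p, miR-127-5p, miR-370-3p and miR-668 had 74, 70, 61, 59, 59 and 34 reads in CK library 2 and 0 in the other 5 libraries. miR-493-5p, miR-136-5p, miR-411-3p and miR-376c-3p had 291, 150, 104 and 49 reads in CK library 3 and 0 elsewhere. Opposite arms of a hairpin were found in different libraries in some cases, as for miR-493, with its 3p arm in CK library 2 and its 5p arm in CK library 3.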
